A study of Homo sapiens with 6 samples.

Results

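Krüppel-like factors (KLFs) are transcription factors with a zinc-finger domain at the C terminus that binds GC-rich and CACCC-type DNA. The account covers 10 of them, KLF2, KLF3, KLF4, KLF6, KLF7, KLF9, KLF10, KLF11, KLF13 and KLF16, taken as a list of symbols and found in the deposited tables through their Ensembl gene IDs. All 10 were found among the 45372 gene IDs of each table, and all 10 entered the test, which covered 13680 genes. The 10 are part of 18 numbered KLF genes of the human genome, pseudogenes left out. The cells were human umbilical vein endothelial cells (HUVECs), wild-type primary cells of the vessel lining from a commercial supplier, used after 3 passages in an endothelial growth medium. They were transfected with lipid reagent and 50 nM of either a synthetic mimic of the microRNA miR-409-3p (3 libraries) or a non-specific control RNA (3 libraries), and RNA was taken at 48 h. RNA from 4 technical replicates was pooled for each library, per the series' design text. The labels call replicates 1 to 3 biological replicates without naming cultures or donors, so the p-values measure the spread between these libraries, which may be technical. All 6 sample titles, control and mimic alike, also describe the cells as non treated, and the treatment meant is not named.

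Family members fall by their partner proteins into activators (among them KLF2, KLF4, KLF6 and KLF7), repressors that recruit the CtBP co-repressors (KLF3) and repressors that recruit SIN3A (KLF9, KLF10, KLF11, KLF13 and KLF16). In endothelium KLF2 and KLF4 are known as the factors switched on by laminar blood flow through the MEKK3, ERK5 and MEF2 cascade, and they hold the vessel lining in a quiescent, anti-inflammatory and anticoagulant state. Several family members behave as early response genes with short-lived mRNAs. MicroRNAs such as miR-409-3p pair through their seed, bases 2 to 8, with sites in 3′ untranslated regions (3′ UTRs) and usually lower the mRNA that holds them.

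The microRNA and the strongest seed matches found in the members' 3′ UTRs are shown because the mimic could pair with them directly. The mature sequence is RefSeq's (chr14:101065346-101065367, plus strand, GRCh38.p14), with the seed in capitals. The sites are 30-base windows of the longest 3′ UTR annotated by GENCODE 29 (GRCh38), written as DNA 5′ to 3′ on the mRNA strand, with the match to the seed in capitals.
miR-409-3p: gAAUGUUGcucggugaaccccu
KLF3, chr4:38698034-38698063, plus strand: cagtgaggtttCAACATTttgttagctgtg
KLF4, chr9:107485149-107485178, minus strand: tgtcttccgatCAACATTtatgacctaagt
KLF11, chr2:10054371-10054400, plus strand: gttgcttgtcaCAACATTctccaagcagtg
KLF9, chr9:70385876-70385905, minus strand: gaactgcttttAACATTAgggactgggagc
The KLF3, KLF4 and KLF11 windows hold the 7-base match CAACATT, and the KLF9 window holds AACATTA, the 7-base form with an A opposite the microRNA's base 1. A match of the KLF9 kind was also the longest in KLF10. KLF6, KLF7, KLF13 and KLF16 held the 6-base match AACATT and nothing longer. KLF2 was the only member without any match in its 3′ UTR of 843 bases. Across the 11855 genes searched, 45.4% had a 6-base or longer match, 10.1% had CAACATT as their best and 9.54% had AACATTA as their best. The members' 3′ UTRs ran from 843 to 7076 bases against a median of 1383 over the genes searched, and a longer region has more chances of a match. Such a match is a description of the sequence and no evidence of binding.

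KLF2 mRNA was about 2-fold higher with the mimic, the only member past the adjusted threshold, and 7 further members lay higher in every mimic library than in any control library by smaller amounts. KLF10 and KLF16 did not separate. No member lay lower in every mimic library than in any control library, though the mean of KLF10 was slightly lower with the mimic. In counts, limma with Benjamini-Hochberg adjustment over all genes tested called 1 of the 10 members higher (KLF2) against 0.132% of all genes tested, and 0 lower against 0.300%. At an unadjusted p under 0.05, limma had 8 members higher against 3.05% of all genes, and 0 lower against 7.64%. The groups did not overlap, with the mimic above, for 8 members against 5.16% of all genes, and did not overlap with the mimic below for 0 members against 10.5%. The median log2 fold change was 0.24 over the members and -0.017 over all genes tested, where fold changes are mimic minus control on log2(TPM + 1) and TPM is the deposited unit, a level per transcript length with a common total across libraries. Over all genes 18 were called higher and 41 lower (34 and 42 after quantile scaling). The members were chosen with earlier results of these data known. Their counts and median therefore describe this list and not the KLF family. Of the 3 tested KLF genes outside it, 0 were higher or lower at a limma unadjusted p under 0.05, and nothing is read from so few.

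**Figure D1:**
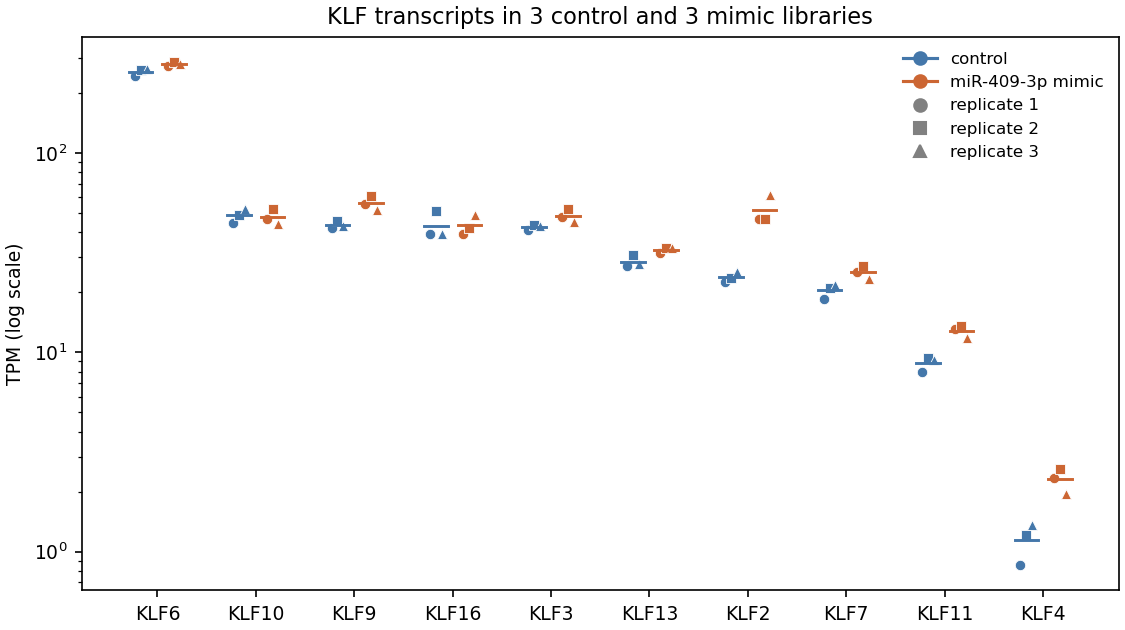
TPM on a log scale for the 10 KLF genes, ordered by control mean, in 3 control (blue) and 3 mimic (orange) libraries. Marker shapes give replicates and lines give group means. KLF2 moves from 23.9 to 51.5 TPM, while KLF10 and KLF16 overlap between groups.

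Library depth, estimated from the values, ran from 29.8 to 35.8 M reads. The mature microRNA is not measured in libraries made from enriched mRNA. All 10 endothelial markers (such as PECAM1, CDH5 and VWF) were at 92.6 TPM or more in every library, and their summed level was 5332 to 5583 TPM in controls and 5635 to 5741 TPM with the mimic, without overlap; its part in the KLF differences was not tested. Summed smooth muscle markers (5 genes) were at 9.60 to 13.3 against 10.4 to 12.02 TPM, fibroblast markers (6) at 12.9 to 16.1 against 13.0 to 16.4, epithelial markers (5) at 19.0 to 20.2 against 14.7 to 19.7 with KRT5 and KRT14 at 0, and leukocyte markers (6) at 0.26 to 0.42 against 0.11 to 0.61 with PTPRC, CD3E and ITGAM at 0. Of the blood and platelet genes, HBB, HBA1 and PPBP were at 0 in all libraries. PF4 was at 0 in the controls and at 0.203, 0.559 and 0.219 TPM with the mimic, without overlap. These PF4 values lie under the 1 TPM needed for the test, so no group difference is read from them. Their part in the KLF differences was not tested. In bulk RNA, fewer cells of a type and less RNA per cell cannot be told apart. Of the control libraries, replicate 1 had the lowest TPM of all 10 members. Of the mimic libraries, replicate 2 was highest for 8 members, and replicate 3 was highest for KLF2 and KLF16, the most GC-rich of the 10.

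Among the activators, KLF2 (ENSG00000127528, chr19:16324817-16327874, plus strand), the flow-induced factor of quiescent endothelium, stood at 22.6, 23.7 and 25.3 TPM in control libraries 1 to 3 and at 46.6, 46.6 and 61.3 TPM in mimic libraries 1 to 3. Every mimic library lay well above every control, and mimic replicate 3 stood apart from the other two. The means were 23.9 ± 1.35 and 51.5 ± 8.48 TPM (SD, n = 3 each), a ratio of 2.16. The log2 fold change was 1.07 (SE 0.11, 95% interval 0.82 to 1.31, limma adjusted p = 0.00619 by Benjamini-Hochberg). The call was kept in 14 of 16 alternative settings and ended in the others, with limma adjusted p = 0.0907 without the filter on low values and 0.0535 without control replicate 1, while the log2 fold change stayed between 0.94 and 1.13 in all 16. Behind these values lay an estimated 378 to 442 reads per control library and 765 to 934 per mimic library.

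KLF4 (ENSG00000136826, chr9:107484852-107490482, minus strand), which shares many endothelial targets with KLF2 and is also known as a pluripotency factor, was the scarcest member. Its levels were 0.857, 1.21 and 1.36 TPM in the controls and 2.35, 2.61 and 1.95 TPM with the mimic. The groups did not overlap, and the means of 1.14 ± 0.256 and 2.30 ± 0.332 TPM (SD, n = 3 each) gave a ratio of 2.02, close to that of KLF2. The log2(TPM + 1) scale understates the change of so low a gene, and the fitted value was 0.63 (SE 0.16, 95% interval 0.27 to 0.99, limma adjusted p = 0.154), which did not pass. These levels rest on an estimated 26 to 43 reads per control library and 54 to 85 per mimic library.

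KLF6 (ENSG00000067082, chr10:3775996-3785281, minus strand), a widely expressed early response gene, was by far the most abundant member. Control libraries held 244, 261 and 264 TPM and mimic libraries 273, 287 and 281 TPM. The mimic values were all higher, but the shift was small, with means of 256 ± 11.0 and 280 ± 6.98 TPM (SD, n = 3 each), a ratio of 1.09. Its log2 fold change of 0.13 (SE 0.05, 95% interval 0.01 to 0.25) did not pass (limma adjusted p = 0.412).

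KLF7 (ENSG00000118263, chr2:207074137-207167267, minus strand), known from neuronal and blood cell development, was measured at 18.6, 20.9 and 21.8 TPM in controls and 25.3, 27.1 and 23.3 TPM with the mimic. Again no library crossed over, and the means were 20.5 ± 1.67 and 25.2 ± 1.88 TPM (SD, n = 3 each), a ratio of 1.23. The log2 fold change of 0.29 (SE 0.08, 95% interval 0.10 to 0.48) did not pass (limma adjusted p = 0.211). All 4 activators thus had the mimic libraries on top, by ratios from 1.09 to 2.16.

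KLF3 (ENSG00000109787, chr4:38664196-38701042, plus strand), a repressor that works through CtBP, was at 41.2, 43.6 and 42.8 TPM in controls and at 47.8, 52.1 and 44.8 TPM with the mimic. The mimic libraries were higher without overlap, with mimic replicate 3 only slightly above the top control. Means of 42.5 ± 1.25 and 48.3 ± 3.66 TPM (SD, n = 3 each) gave a ratio of 1.13 and a log2 fold change of 0.18 (SE 0.07). That difference was not past the threshold (limma adjusted p = 0.379). KLF3 carries the 7-base seed match printed above and 4 further 6-base or longer matches, and its level was not lower with the mimic. The antisense gene KLF3-AS1 overlaps 266 of its exon bases and was at 0.14 to 0.53 TPM.

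Of the SIN3A-recruiting members, KLF11 (ENSG00000172059, chr2:10042849-10054836, plus strand), a TGF-beta-inducible repressor, differed most. It was measured at 7.96, 9.32 and 9.17 TPM in controls and 13.1, 13.6 and 11.7 TPM with the mimic. The groups lay apart, with means of 8.82 ± 0.749 and 12.8 ± 0.970 TPM (SD, n = 3 each) and a ratio of 1.45. Its log2 fold change was 0.49 (SE 0.09, 95% interval 0.29 to 0.70) with a limma adjusted p of 0.0623, just short of the threshold, and 6 of 16 alternative settings called it. An antisense gene, AC104794.4, overlaps 416 exon bases of KLF11 and was at 0 in the controls and 0.25 to 0.83 TPM with the mimic. These AC104794.4 values lie under the 1 TPM needed for the test, so no group difference is read from them. KLF11 itself had an estimated 303 to 365 reads per control library and 407 to 554 per mimic library. Of the 75-base stretches of KLF11 transcripts, 7.58% also occur in AC104794.4. Whether counting used strand is not given in the sources used here, and reads of the shared bases cannot be told apart without it. The part of AC104794.4 in the KLF11 difference was not tested.

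KLF9 (ENSG00000119138, chr9:70384597-70414624, minus strand), known to be induced by glucocorticoid and thyroid hormones, followed at 42.1, 45.5 and 42.9 TPM in controls and 55.3, 61.2 and 51.6 TPM with the mimic. All mimic libraries were above all controls. From means of 43.5 ± 1.77 and 56.0 ± 4.83 TPM (SD, n = 3 each), the ratio was 1.29. The log2 fold change of 0.36 (SE 0.07, 95% interval 0.19 to 0.52) did not pass (limma adjusted p = 0.0847), though 3 of 16 alternative settings called it.

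KLF13 (ENSG00000169926, chr15:31326855-31435665, plus strand), first known as a regulator of the chemokine gene CCL5 in T cells, was at 27.0, 30.7 and 27.9 TPM in controls and 31.6, 33.5 and 33.2 TPM with the mimic. The lowest mimic library was just above the highest control. Means of 28.5 ± 1.91 and 32.8 ± 1.01 TPM (SD, n = 3 each) gave a ratio of 1.15, a log2 fold change of 0.20 (SE 0.07) and a limma adjusted p of 0.312.

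The remaining SIN3A-recruiting members overlapped between groups. KLF10 (ENSG00000155090), the close TGF-beta-inducible relative of KLF11, was at 44.3, 48.8 and 52.6 TPM in controls and 46.5, 52.3 and 44.1 TPM with the mimic, with a log2 fold change of -0.028 (SE 0.08, 95% interval -0.22 to 0.16). KLF16 (ENSG00000129911, chr19:1852399-1863568, minus strand), a GC-box-binding repressor, was at 39.2, 50.9 and 39.2 TPM in controls and 39.3, 42.0 and 49.0 TPM with the mimic, with a log2 fold change of 0.015 (SE 0.12, 95% interval -0.25 to 0.28). A single library stood high in each KLF16 group, control replicate 2 and mimic replicate 3. The limma adjusted p was 0.971 for KLF10 and 0.989 for KLF16, and the sign of either changed when single libraries were left out. An antisense gene, AC012615.3, overlaps 483 exon bases of KLF16, and 12.2% of the 75-base stretches of KLF16 transcripts also occur in it. AC012615.3 was at 0.483, 0.491 and 2.08 TPM in controls and 0.492, 2.48 and 0.530 TPM with the mimic. As for KLF11, reads of the shared bases cannot be told apart without strand use. The part of AC012615.3 in the KLF16 levels was not tested.

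**Figure D2:**
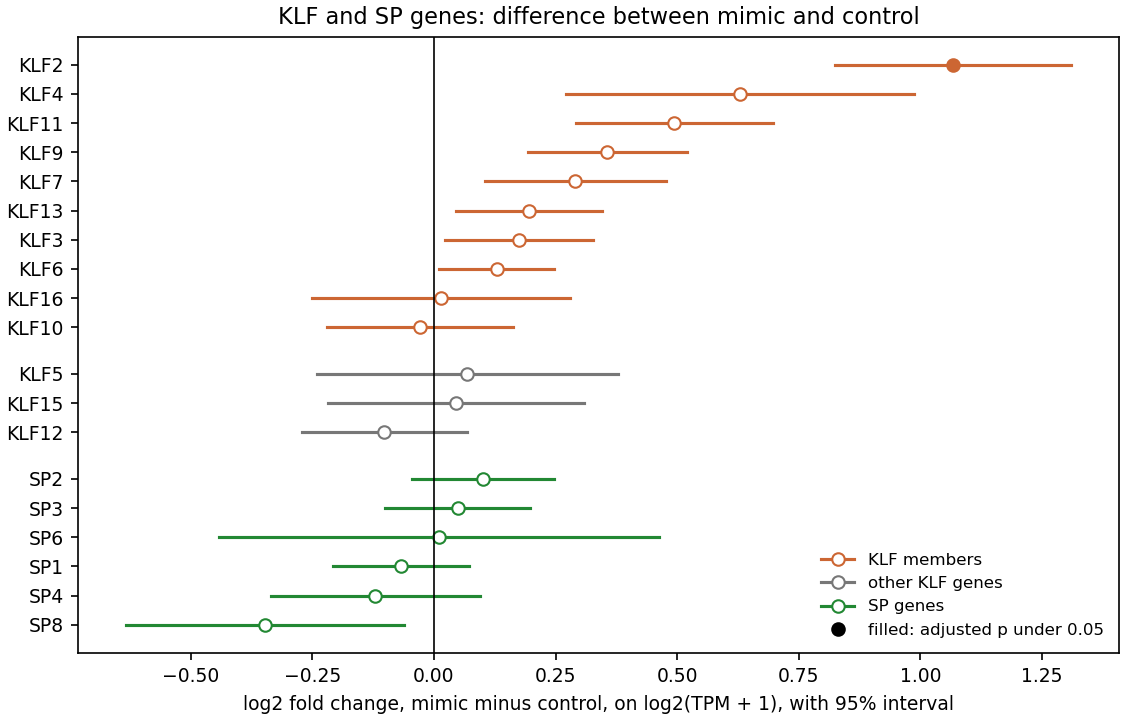
Log2 fold change, mimic minus control on log2(TPM + 1), with 95% intervals from limma, for the 10 members (orange), 3 other KLF genes (grey) and 6 SP genes (green). Only KLF2, at 1.07, is filled for an adjusted p under 0.05; the intervals of 8 members lie above 0.

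In TPM, the order of the members in control cells was KLF6, KLF10, KLF9, KLF16, KLF3, KLF13, KLF2, KLF7, KLF11 and KLF4. From KLF10 through KLF3 each neighbour overlapped the next, and all other neighbours were apart in every library. KLF6 was 5.27-fold above KLF10 by mean. With the mimic KLF2 moved from rank 7 to rank 3, into a run from KLF9 through KLF16 in which each neighbour overlapped the next. The 10 members summed to 487, 535 and 527 TPM in controls and 581, 617 and 602 TPM with the mimic. These sums did not overlap and differed by 83.3 TPM (exact two-sided permutation p = 0.1, the smallest that 3 against 3 can give). KLF2 made up 4.62% ± 0.184 of the sum in controls and 8.59% ± 1.41 with the mimic (SD, n = 3 each), while the share of KLF6 went from 49.6% ± 0.783 to 46.7% ± 0.280.

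KLF2 had the largest fold change of all members in these same libraries. Its ratios to the others therefore describe that difference and are no separate support for it. The log2 ratio of KLF2 to each of the other 9 members was compared between groups. KLF2 gained on 8 of them without overlap between groups, by 0.56 against KLF11, 0.74 against KLF9, 0.79 against KLF7, 0.90 against KLF13, 0.92 against KLF3, 0.97 against KLF6, 1.08 against KLF16 and 1.13 against KLF10. Without mimic replicate 3 the gain on KLF11 was 0.36. For each of these 8 the exact two-sided permutation p was 0.1, the smallest possible, and 0.113 after Benjamini-Hochberg adjustment over the 9 ratios. Against KLF4 the gain was 0.07 (SE 0.29), the groups overlapped, and the exact two-sided permutation p was 0.8. KLF2 stood at 26.4, 19.7 and 18.7 times KLF4 in controls and 19.8, 17.8 and 31.4 times with the mimic. Mimic replicate 3 held the highest of these proportions and mimic replicate 2 the lowest, with few KLF4 reads behind them.

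Mimic replicates 2 and 3 differed from each other in how levels related to base composition. Relative to each gene's mean, the fifth of tested genes with most GC minus the fifth with least had a median log2 difference of -0.19 in mimic replicate 2 and 0.18 in mimic replicate 3, against -0.07 to 0.06 in the controls. Among the members, the log2 ratio of mimic replicate 2 to mimic replicate 3 was -0.39 for KLF2 (65.2% GC) and -0.22 for KLF16 (67.8% GC), and it was 0.01 to 0.42 for the other 8 (41.5% to 57.6% GC). KLF2 and KLF16 were thus higher in replicate 3 where the remaining members were higher in replicate 2. When a smooth trend on GC and transcript length was removed from each library, an alternative chosen after the data were seen, limma called 5 members higher, against 0.816% of all genes. These were KLF2 (1.08, adjusted p = 0.00305), KLF11 (0.52, adjusted p = 0.0152), KLF9 (0.38, adjusted p = 0.0172), KLF7 (0.31, adjusted p = 0.0287) and KLF3 (0.20, adjusted p = 0.0395), each a log2 fold change by limma. KLF6, KLF13 and KLF4 came to limma adjusted p of 0.0510, 0.0661 and 0.0815. The sizes of the differences changed little, and the standard error of KLF9, for example, went from 0.07 to 0.05.

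**Figure D3:**
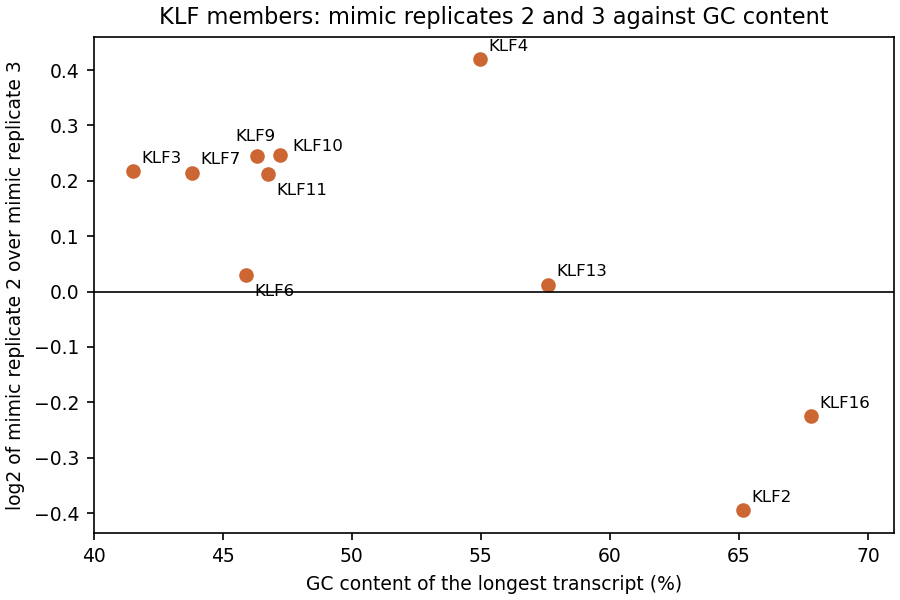
Log2 ratio of TPM in mimic replicate 2 over mimic replicate 3 (y axis) against GC content of the longest transcript in percent (x axis), a point for each of the 10 members. KLF2 at -0.39 and KLF16 at -0.22 lie below 0, and the other 8 lie at 0.01 or above.

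**Figure D4:**
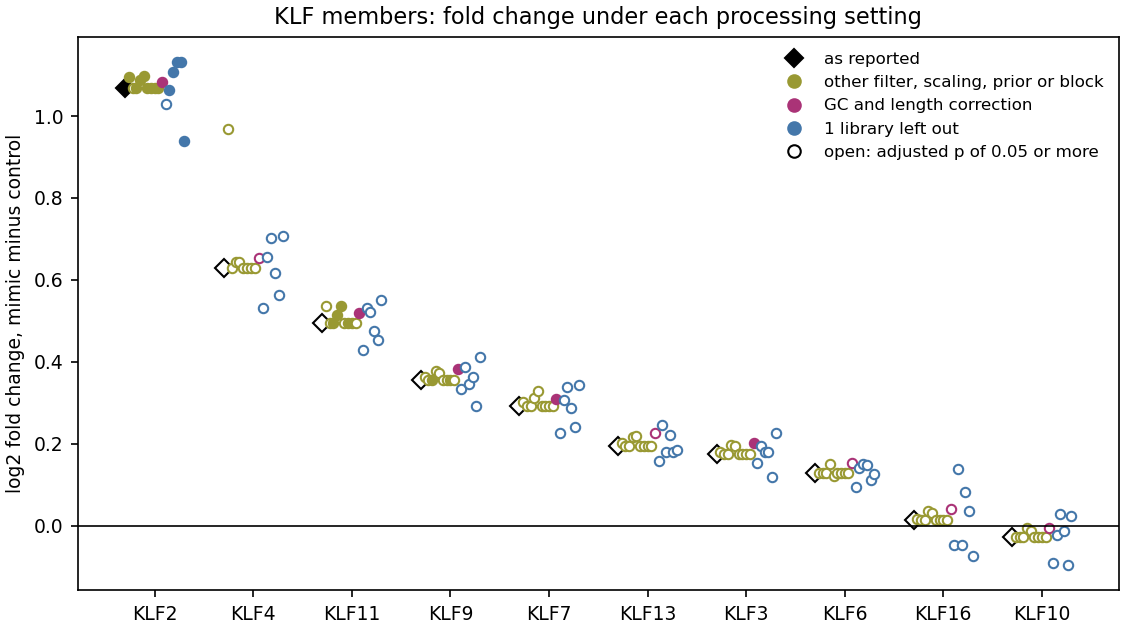
Log2 fold change, mimic minus control, of each member as reported (black diamond) and under alternative filters, scalings, priors and blocks (olive), GC and length correction (purple) or with 1 library left out (blue); filled points have an adjusted p under 0.05. KLF2 stays between 0.94 and 1.13, and only KLF10 and KLF16 cross 0.

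Of the 8 KLF genes outside the list, 3 entered the test and limma called 0 in either direction (by unadjusted p, also 0). KLF12, a CtBP-recruiting relative of KLF3, had a log2 fold change of -0.10 (SE 0.07), KLF5, an activator of proliferation, 0.07 (SE 0.14), and KLF15, known in metabolism and cardiac muscle, 0.05 (SE 0.12). KLF8 was at 0.58 to 0.78 TPM in controls and 0.83 to 1.03 TPM with the mimic, with the mimic libraries above the controls but under the level needed for the test. KLF17 and KLF18 were at 0 in all libraries, and KLF1 and KLF14 were above 0 in a single library each (0.153 and 0.041 TPM). The SP factors, zinc-finger relatives that bind the same GC boxes, had 6 of 9 genes tested and 0 called by limma (by unadjusted p, 0 higher and 1 lower). Shares over all genes were 0.132% called higher and 0.300% lower, and 3.05% and 7.64% by unadjusted p. Nothing is read from the counts of such short lists. SP8 was at 2.43, 2.77 and 2.39 TPM in controls and 1.95, 1.66 and 1.71 TPM with the mimic, a log2 fold change of -0.35 (SE 0.13, limma adjusted p = 0.351). The ubiquitous SP1 and SP3 were at -0.07 and 0.05, and SP2, SP4 and SP6 at 0.10, -0.12 and 0.01. The median over SP genes was -0.029.

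Genes reported to be raised by KLF2 and KLF4 in endothelium had counts near those of all genes. Of 18 listed, 15 were tested and limma called 0 in either direction, where the shares over all genes are 0.132% higher and 0.300% lower. By unadjusted p, 0 were higher and 1 lower, beside 3.05% and 7.64% of all genes, and nothing is read from such counts in a list of this size. The median log2 fold change was 0.02 against -0.017 over all genes tested. NOS3, the endothelial nitric oxide synthase and a textbook KLF2 target, stood at 64.9, 68.2 and 62.6 TPM in controls and 65.7, 62.6 and 69.5 TPM with the mimic. THBD, the anticoagulant receptor thrombomodulin, was at 16.3, 17.7 and 16.9 against 16.5, 16.6 and 17.7 TPM. The groups overlapped for both; these genes were picked as the best-known targets, outside the rule for named genes. The lowest p-values of the list belonged to SMAD7, an inhibitor of TGF-beta signalling, with a log2 fold change of -0.35 (limma adjusted p = 0.394), the matrix-associated protein gene CCN3 at 0.32, the protease gene ADAMTS4 at -0.16 and the sphingosine-1-phosphate receptor gene S1PR1 at 0.09.

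For genes reported to be lowered by KLF2 and KLF4, 14 of 15 listed were tested, limma called 0 (all genes 0.132% higher and 0.300% lower), and by unadjusted p 1 was higher and 1 lower (all genes 3.05% and 7.64%). The median was 0.02, and these counts too are near the shares over all genes. F3, tissue factor, which starts coagulation, was at 2.05, 2.25 and 2.80 TPM in controls and 4.68, 5.26 and 3.67 TPM with the mimic. It was thus higher in every mimic library, with a log2 fold change of 0.71 (SE 0.15, limma adjusted p = 0.0868; called after GC and length correction, adjusted p = 0.0361). EDN1, the vasoconstrictor endothelin-1 and very abundant here, was at 982, 1068 and 1126 TPM in controls and 964, 976 and 937 TPM with the mimic, a log2 fold change of -0.14 (limma adjusted p = 0.460). CCL2, a monocyte chemokine, was at 0.26 and KDR, the main VEGF receptor, at 0.11.

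**Figure D5:**
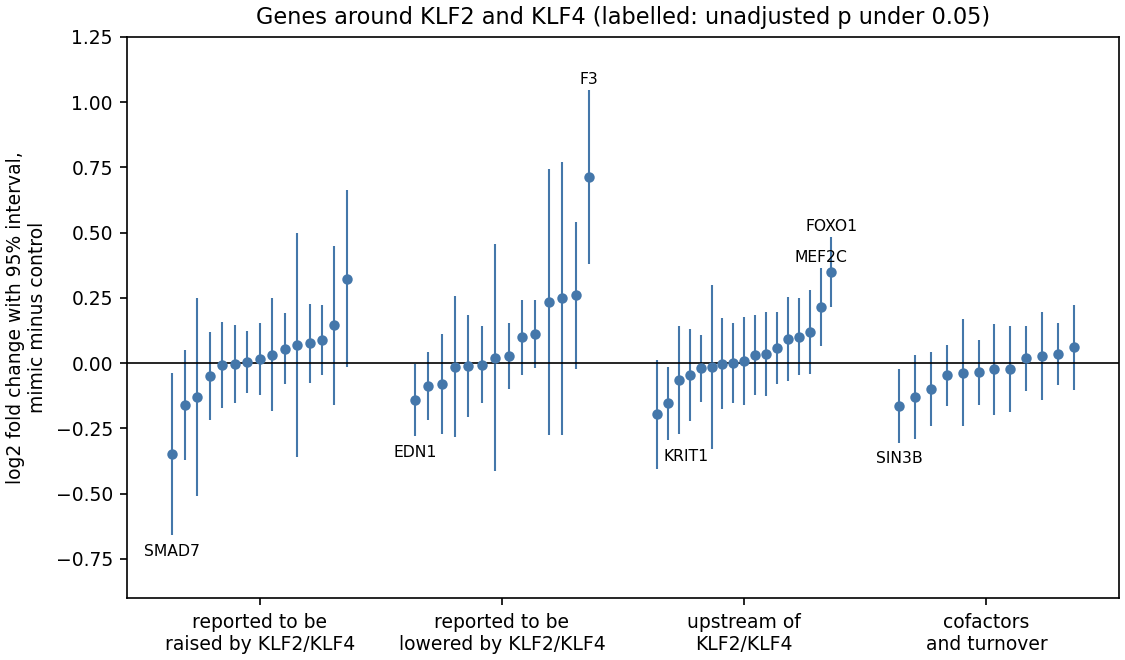
Log2 fold change, mimic minus control, with 95% intervals from limma for the tested genes of 4 lists around KLF2 and KLF4, sorted within each list; genes at an unadjusted p under 0.05 are labelled. Most intervals include 0, with F3 at 0.71, FOXO1 at 0.35 and SMAD7 at -0.35 farthest out in theirs.

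Upstream of KLF2 and KLF4, 17 of 18 listed genes were tested, 0 were called by limma (by unadjusted p, 2 higher and 1 lower), and the median was 0.01. The list holds genes such as KRIT1 that restrain the MEKK3 cascade beside genes that drive it, so its median gives no direction. FOXO1, a transcription factor restrained by AKT that governs endothelial quiescence, was at 53.7, 54.7 and 59.5 TPM in controls and 70.7, 73.9 and 70.1 TPM with the mimic, a log2 fold change of 0.35 (SE 0.06, limma adjusted p = 0.0525). MEF2C, of the family that binds the KLF2 promoter, was at 27.3, 27.8 and 29.1 TPM in controls and 31.9, 35.3 and 31.2 TPM with the mimic, a log2 fold change of 0.22 (SE 0.07, limma adjusted p = 0.252). Both lay higher in every mimic library, and both passed after GC and length correction, with limma adjusted p of 0.00706 and 0.0249. KRIT1, a scaffold that holds the MEKK3 cascade in check, was at -0.15, and MAPK7, which encodes ERK5, at -0.20. Among cofactors and turnover factors of KLF proteins all 12 were tested and 0 were called by limma (by unadjusted p, 0 higher and 1 lower), with a median of -0.03. The shares over all genes by unadjusted p are 3.05% higher and 7.64% lower, and nothing is read from the counts of these lists. The co-repressor genes SIN3B and SIN3A were at -0.16 and -0.10, the acetyltransferase gene KAT2B at -0.13 and CTBP2, whose product is recruited by KLF3, at -0.05.

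The genes whose profile over the 6 libraries was most like that of KLF2, by the root mean square difference of centred log2(TPM + 1) among 10550 genes with a mean of at least 5 TPM, were EGR1 (0.09), ZFP36 (0.15), SPRY4 (0.18), NFKBIZ (0.20) and ST7-AS1 (0.25). They were chosen for likeness to a gene that is higher with the mimic, so their own differences are a description. EGR1, an early response zinc-finger factor, was at 9.31, 10.4 and 11.6 TPM in controls and 20.2, 18.3 and 24.0 TPM with the mimic. Like KLF2 it was highest in mimic replicate 3. ZFP36, which binds AU-rich mRNA and speeds its decay, was at 9.06, 9.95 and 10.5 against 23.0, 19.8 and 21.1 TPM. SPRY4, a feedback inhibitor of receptor tyrosine kinase signalling, had a ratio of mimic to control means of 1.75, NFKBIZ, a nuclear regulator of NF-kB, one of 2.01, and the antisense RNA ST7-AS1 one of 1.67. Among the members, KLF4 (0.31) and KLF11 (0.35) had the profiles nearest to KLF2.

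AU-rich motifs of the kind found in short-lived mRNAs were also counted in the members' 3′ UTRs. The pentamer ATTTA, searched on the mRNA strand of the longest 3′ UTR, occurred 20 times in KLF7, 8 times in KLF3 and KLF9, 6 times in KLF6 and KLF11, 5 times in KLF13, 3 times in KLF2 and KLF10 and 2 times in KLF4 and KLF16. The median over all genes searched was 2, and 74.1% held at least 1. Per kilobase KLF2 had the most of the members, 3.56, against a median of 1.72. KLF6 (1.69), KLF16 (0.97) and KLF13 (0.89) were under that median, and the remaining members were at 2.12 to 2.83. The longer form TTATTTATT, which contains ATTTA, was found in KLF16 alone among the members and in 9.47% of genes.

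Promoter sequences from RefSeq's GRCh38.p14 annotation matched 8 of the 10 members. Bases upstream of the start and outside annotated exons are shown for KLF2 and for the next 3 members by fold change, to set their promoters side by side. Capitals mark GGGCGG or its reverse complement CCGCCC, the GC box that SP and KLF proteins bind, and in KLF2 also the match to the MEF2 consensus.
KLF2, chr19:16324576-16324816, plus strand: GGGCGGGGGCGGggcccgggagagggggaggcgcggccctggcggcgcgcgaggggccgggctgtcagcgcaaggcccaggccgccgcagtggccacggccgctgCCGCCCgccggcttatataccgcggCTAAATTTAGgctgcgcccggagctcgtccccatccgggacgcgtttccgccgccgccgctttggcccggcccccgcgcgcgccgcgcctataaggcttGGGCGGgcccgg
KLF4, chr9:107489770-107490019, minus strand: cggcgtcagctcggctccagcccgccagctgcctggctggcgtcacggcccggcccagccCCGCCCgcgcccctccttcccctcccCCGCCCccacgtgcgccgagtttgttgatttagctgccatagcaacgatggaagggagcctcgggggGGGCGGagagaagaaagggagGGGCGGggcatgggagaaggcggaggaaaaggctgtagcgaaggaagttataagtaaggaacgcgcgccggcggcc
KLF11, chr2:10043971-10044174, plus strand: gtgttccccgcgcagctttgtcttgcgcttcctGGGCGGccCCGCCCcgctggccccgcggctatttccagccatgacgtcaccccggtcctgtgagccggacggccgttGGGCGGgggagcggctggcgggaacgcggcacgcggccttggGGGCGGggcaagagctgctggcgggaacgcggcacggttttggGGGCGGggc
KLF9, chr9:70414658-70414907, minus strand: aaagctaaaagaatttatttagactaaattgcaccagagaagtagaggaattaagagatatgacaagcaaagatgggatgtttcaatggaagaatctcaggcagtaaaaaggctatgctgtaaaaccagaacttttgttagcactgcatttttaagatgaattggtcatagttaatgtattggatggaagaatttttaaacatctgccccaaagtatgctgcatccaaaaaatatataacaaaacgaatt
The KLF2 promoter was 80.0% GC over its 250 bases before the start and held the MEF2 match CTAAATTTAG, which begins 120 bases before the start. The 8 members have 12 windows in all, and a motif is credited to a gene when any of its windows holds it, on either strand. By that count a MEF2 consensus match was found in 1 of the 8 members, in 2.11% of the 10278 tested genes with a promoter entry and in 2.80% of all 35116 windows of the same length. GC boxes were in 7 of the 8 members, in 74.99% of tested genes and in 42.6% of all windows. KLF2 and KLF4 each had 4. The KLF11 window had 6 over its 250 bases, 5 of them in the part shown, and a second KLF11 window had 2. KLF9, whose window was 32.4% GC, had 0. CACCC, a core of KLF binding sites, was in 3 members, 64.8% of tested genes and 54.7% of all windows. CCAAT was in 4 members, 41.8% of tested genes and 32.0% of windows. TGACG, a core of CREB sites, was in 4 members, 36.1% of tested genes and 21.2% of windows, and TATAAA in 0 members, 7.77% of tested genes and 10.7% of windows. These are letters in a window, and a match was not tested for binding.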

How the data were processed

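The authors deposited a table for each of the 6 libraries with TPM per Ensembl gene ID, per the file headers. Genome builds, per the submitters' processing notes, were hg38 and GRCh38.p13. For aligner, counter, annotation, strand use and read filters, the names are not given in sources used here. Per the labels' protocols, mRNA was enriched from 500 ng of total RNA, amplified by 13 PCR cycles and read for 75 cycles, single end.

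On log2(TPM + 1), limma 3.58.1 (R 4.3.3) fitted group as the sole term with a trended prior. A gene was tested when 3 or more libraries held 1 TPM or more. Benjamini-Hochberg adjustment covered all tested genes, with 0.05 as threshold. The procedure was tested on simulated data whose noise was independent between genes. Those data held no GC trend by library, so calls under such a trend were not tested. Single values were compared by exact permutation of the 20 arrangements of 6 libraries (Python 3.11.15, scipy 1.17.1). Intervals of fold changes are at 95%. Depth was estimated from the step that 1 read makes in TPM times GENCODE 29 exon length; 76.1% to 76.9% of low values were whole reads within 0.02. Reads carry no molecular identifiers.

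Alternatives were a pseudocount of 0.1, no filter, a filter of 5 TPM, median-of-ratios and quantile scaling, untrended and robust priors, protein-coding genes only, a replicate block, each library left out, and GC and length correction by loess (span 0.3, chosen after the data were seen). Named were all members, each tested KLF or SP gene, up to 4 genes of lowest p per other list, and the 5 genes most like KLF2. The members and lists were chosen with earlier results of these data known. A further marker gene is not reported here.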

Additional observations from a re-analysis of the deposited data

How the results depend on the processing

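Of the members, 8 kept the sign of their fold change in every alternative that tested them (16 each, 15 for KLF4, which a filter of 5 TPM removes). The number of members called higher, 1 as reported, was 3 with a filter of 5 TPM or protein-coding genes only, 2 with median-of-ratios scaling, quantile scaling or a robust prior, 5 after GC and length correction, 0 without a filter, and 0 to 1 with 1 library left out (0 without control replicate 1). For all genes, 18 higher and 41 lower of 13680 tested as reported, the counts were 6 and 5 of 23872 without a filter. A filter of 5 TPM gave 36 and 79 of 10625. Median-of-ratios scaling gave 33 and 54 of 13672, and quantile scaling 34 and 42 of 13680. Counts were 10 and 10 where the prior was untrended, 37 and 82 where it was robust, and 54 and 122 of 12064 for protein-coding genes. They were 111 and 182 of 13601 after GC and length correction, and 3 to 20 and 5 to 27 with 1 library left out. The fewest higher calls, 3, came without mimic replicate 1. Genes upstream of KLF2 and KLF4 called higher, 0 as reported, were 1 with a filter of 5 TPM, median-of-ratios or quantile scaling, a robust prior or protein-coding genes only, and 2 after GC and length correction. The list reported to be lowered by them had 1 called higher for protein-coding genes and after GC and length correction. With 1 library left out, the fold change of KLF16 ran from -0.074 to 0.14 (-0.047 without control replicate 1, -0.046 without control replicate 3, -0.074 without mimic replicate 3), that of KLF10 from -0.096 to 0.030 (0.030 without control replicate 3, 0.024 without mimic replicate 3), and the log2 ratio of KLF2 to KLF4 from -0.18 to 0.23 (-0.029 without control replicate 3, -0.18 without mimic replicate 3). Deviations of same-numbered libraries correlated at 0.031, -0.087 and -0.11, and those of differently numbered ones at -0.031 to 0.114. These values do not show a pairing by replicate number and cannot exclude one. With replicate as a block 9 genes were called higher and 5 lower, with KLF2 among those higher. The cause of these changes was not tested. KLF4 had an estimated 26 reads in its lowest library, and the part of depth in its changes was not tested.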
